A study of Mus musculus with 6 samples.

Results

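EO771, a mouse mammary tumour cell line, carried mRNA at moderate to high levels for 6 proteins that the liver secretes into plasma. Of these 6 mRNAs, 5 were called lower after treatment with recombinant lipocalin-2 (LCN2), a secreted iron-carrier protein. Across all 10309 genes tested, 9.73% were called lower. The calls of Alb, Afp and Rnase4 held whichever library was left out, while those of Apoe and Ang did not. The set described here holds 10 genes picked by name: Alb, Afp, Ttr, Apoa1, Apob, Apoe, Rbp4, Ambp, Rnase4 and Ang. Rows of the deposited table were taken by gene name, which found 9 of the 10 among 19832 genes; Apob was not analysed here. Falls of Alb and Rnase4 in this same comparison were known when the set was drawn up, so the members' differences are given as a description and no p-value is printed for them.

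The cells compared were EO771 with recombinant LCN2 (3 libraries), set against EO771 without the protein (controls, 3 libraries). All 6 libraries come from 1 established cell line with no stated genetic change. Replicates are numbered 1 to 3 within a group, and dose, exposure time, batch and day are not stated. No label describes the replicates as separate cultures, so the spread between libraries, and every p-value that rests on it, may be partly technical. Values are FPKM (fragments scaled to transcript length and to library size), a unit inferred from the deposited numbers. FPKM is scaled to transcript length, so that levels of different genes may be set side by side. A column summed to between 391569 and 393735 FPKM in LCN2 libraries and to between 395915 and 410808 FPKM in controls. Read depth is unknown, so no counting intervals or detection floors are given. LCN2 replicate 2 stood apart from its group on the first principal component of all tested genes, at 4.34, against 15.7 and 16.5 for the other LCN2 libraries and -17.3 to -8.09 for controls. Member differences without it are given below.

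Albumin is the most abundant plasma protein and carries fatty acids, hormones and metals; alpha-fetoprotein is its fetal relative, made by yolk sac and fetal liver and silenced after birth. In hepatocytes both genes depend on liver-enriched transcription factors of the FOXA, HNF4 and C/EBP families, among others. Apolipoproteins AI, B and E are the protein parts of lipoprotein particles, apolipoprotein E being made by many tissues besides liver. Retinol-binding protein carries vitamin A in plasma in a complex with transthyretin. Ambp encodes a precursor that is split into alpha-1-microglobulin and the protease inhibitor bikunin. RNase 4 and angiogenin are small secreted ribonucleases whose mouse genes share a promoter region.

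Because Alb, Afp and the Rnase4/Ang pair were all lower with LCN2, the 250 bases before their RefSeq starts are shown (GRCm38.p6, plus strand, 5′ to 3′). Apoe was lower too, and its windows were searched but are not shown. Capitals mark matches to the letters GTTAATNAT, to the CCAAT box and to the TATA box (TATAAA), on either strand. The windows are chr5:90460620-90460869 for Alb, chr5:90490464-90490713 for Afp and chr14:51090827-51091076 for the window that RefSeq lists for both Rnase4 and Ang.
Alb: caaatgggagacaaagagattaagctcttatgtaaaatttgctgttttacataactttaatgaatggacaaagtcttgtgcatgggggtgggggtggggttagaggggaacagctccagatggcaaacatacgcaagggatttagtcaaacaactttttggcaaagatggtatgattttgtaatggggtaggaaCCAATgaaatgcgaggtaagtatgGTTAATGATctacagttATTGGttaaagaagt
Afp: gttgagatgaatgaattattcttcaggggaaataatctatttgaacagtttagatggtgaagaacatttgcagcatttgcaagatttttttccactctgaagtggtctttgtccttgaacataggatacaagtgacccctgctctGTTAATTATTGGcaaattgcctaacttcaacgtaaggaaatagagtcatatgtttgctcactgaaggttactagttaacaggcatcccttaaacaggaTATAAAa
Rnase4 and Ang: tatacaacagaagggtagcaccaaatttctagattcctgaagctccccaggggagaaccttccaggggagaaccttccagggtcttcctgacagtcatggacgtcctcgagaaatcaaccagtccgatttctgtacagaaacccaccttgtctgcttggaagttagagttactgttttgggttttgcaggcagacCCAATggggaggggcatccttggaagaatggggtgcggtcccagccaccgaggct

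The motif GTTAATNAT was picked for the search after these sequences had been read. It occurred once in the Alb window, as GTTAATGAT from 32 to 24 bases before the start, and once in the Afp window, as GTTAATTAT from 105 to 97 bases before the start. Of 32851 mouse promoter windows of the same length, 242 (0.737%) held it. The shared Rnase4 and Ang window did not hold it, and had 1 CCAAT match from 55 to 51 bases before the start. None of the RefSeq windows of Apoe, the other member called lower, held GTTAATNAT. Nor did those of the measured members Apoa1, Rbp4 and Ambp. In the Afp window the last 2 bases of the GTTAATTAT match are also the first of a reverse CCAAT match. CCAAT matches were present in 33.8% and TATA matches in 12.4% of all windows. Such matches are descriptions of these letters and say nothing of binding. RefSeq lists a second Rnase4 start on chromosome 14, whose window (51095750 to 51095999) held no match to any of the motifs.

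Of the 9 members measured, 3 were below 1 FPKM in every library. Ttr, which encodes transthyretin, was listed at 0 in all 6 libraries. Apoa1 (chromosome 9, 46228580 to 46230466, GRCm38) was at 0, 0.106 and 0 FPKM in LCN2 libraries and at 0, 0 and 0.134 FPKM in controls. Ambp (chromosome 4, 63143275 to 63154799) was at 0, 0.0337 and 0.0357 FPKM in LCN2 libraries and at 0.0379, 0 and 0.0744 FPKM in controls. Both groups overlapped for Apoa1 and Ambp, and neither was tested. The main protein of high-density lipoprotein and the plasma partner of retinol-binding protein were thus at or near 0 beside an abundant albumin mRNA.

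**Figure D1:**
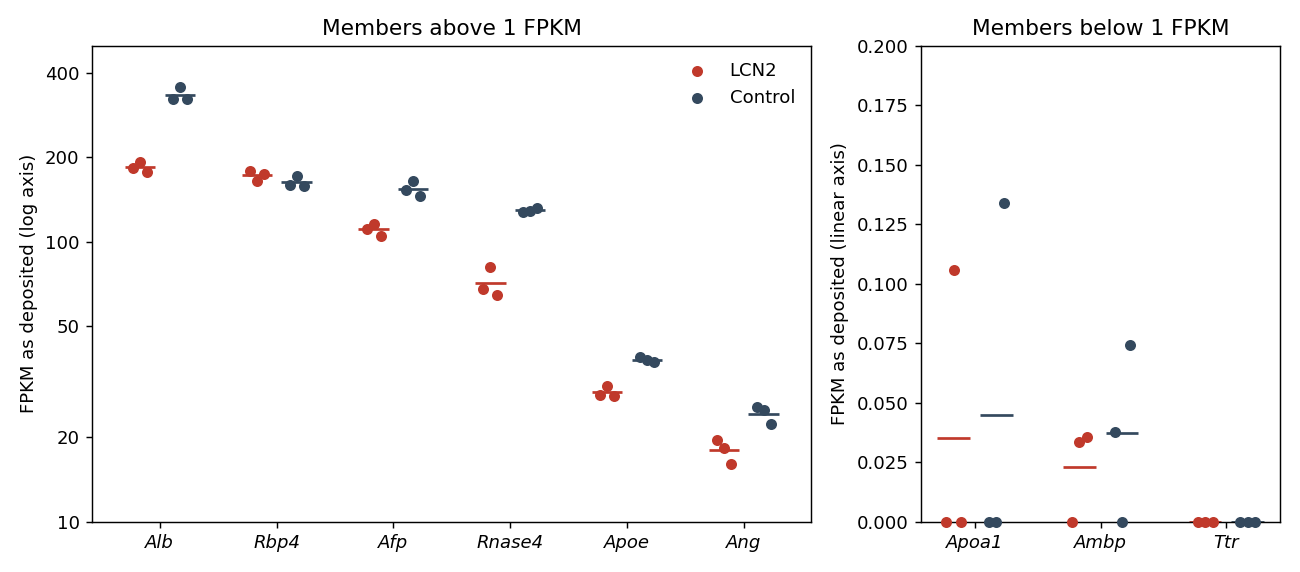
FPKM as deposited in every library for the 6 members above 1 FPKM (left, log axis) and the 3 below it (right, linear axis); each point is 1 library, LCN2 in red left of Control in blue, and the line is the group mean. The LCN2 points lie below all Control points for Alb, Afp, Rnase4, Apoe and Ang, overlap them for Rbp4, and every point on the right is at or below 0.134 FPKM.

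The 6 remaining members had a mean of at least 1 FPKM and entered the fit over all genes. In that fit 5 of them were called lower and 0 higher. Across the 10309 genes tested, 9.73% were called lower and 11.8% higher with LCN2, 21.5% in all; since the choice of members used this comparison, nothing is read from the difference between these shares. A gene was called where limma gave a Benjamini-Hochberg adjusted p under 0.05 on log2(FPKM + 1), after scaling by TMM (trimmed mean of M-values). Without scaling, the calls over all genes split into 693 higher and 1680 lower, in place of 1213 and 1003, and the same number of members, 5, was called lower. These are bulk libraries, in which fewer cells of a type and less RNA per cell cannot be told apart.

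Alb (ENSMUSG00000029368, chromosome 5, 90460897 to 90476602) was the most abundant member. It had 184, 193 and 178 FPKM in LCN2 libraries 1 to 3, against 324, 358 and 322 FPKM in controls 1 to 3. All LCN2 libraries lay far below all controls, with coefficients of variation of 4.09% within LCN2 and 6.04% within controls. The LCN2 mean as deposited was 55.4% of the control mean. In the fit, which used scaled log2(FPKM + 1), the log2 fold change was -0.78 (SE 0.04). By this difference Alb ranked 21st from the lowest of all tested genes. Its level was above that of 97.7% to 97.8% of genes with a value above 0 in LCN2 libraries, and of 98.8% to 98.9% in controls. Albumin mRNA thus stayed among the most abundant mRNAs in both groups.

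Afp, which starts 29.8 kb downstream of Alb (ENSMUSG00000054932, chromosome 5, 90490737 to 90508907), was lower too, by less. Its values were 111, 116 and 105 FPKM in LCN2 libraries and 153, 164 and 146 FPKM in controls, with no overlap. The LCN2 mean as deposited was 71.8% of the control mean, and the log2 fold change after scaling was -0.41 (SE 0.04). The ratio of Alb to Afp within a library, which no scaling between libraries can alter, was 1.66, 1.66 and 1.70 with LCN2 and 2.12, 2.19 and 2.20 in controls. Albumin mRNA was therefore further below its control level than alpha-fetoprotein mRNA in each LCN2 library. This ratio was computed after the member values had been seen.

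The pair of secreted ribonucleases on chromosome 14 also differed in size of fall. Rnase4 (ENSMUSG00000021876, 51091077 to 51106151) had 67.5, 81.1 and 64.3 FPKM in LCN2 libraries and 128, 129 and 132 FPKM in controls. LCN2 replicate 2 was the highest of its group, and the groups were well apart. The LCN2 mean as deposited, 71.0 ± 8.93 FPKM, was 54.7% of the control mean of 130 ± 2.10 FPKM (SD, n = 3 each). After scaling, the log2 fold change of Rnase4 was -0.81 (SE 0.08). Ang (ENSMUSG00000072115, 51091150 to 51102009), which encodes angiogenin, a ribonuclease that promotes vessel growth, had 19.5, 18.3 and 16.1 FPKM in LCN2 libraries and 25.6, 25.1 and 22.3 FPKM in controls. The groups did not overlap, and every LCN2 library was below the lowest control. Its log2 fold change was -0.36 (SE 0.08).

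Rnase4 and Ang are annotated on the same strand and share 219 exon bases, 13.4% of the exon bases of Rnase4 and 18.2% of those of Ang. Reads that lie wholly within the shared part cannot be assigned to either gene by position. How such reads were treated in the deposited values is not known. The ratio of Rnase4 to Ang was 3.46, 4.43 and 4.0 in LCN2 libraries and 4.99, 5.16 and 5.92 in controls. The groups did not overlap, at 3.96 ± 0.485 with LCN2 and 5.36 ± 0.492 in controls (SD, n = 3 each). The ribonuclease with the higher level thus had the larger difference on this scale. With any 1 library left out, the ratio lay between 3.73 and 4.22 for LCN2 and between 5.08 and 5.54 for controls.

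Apoe (ENSMUSG00000002985, chromosome 7, 19696109 to 19699188), the ligand by which remnant lipoproteins are taken up, had 28.4, 30.5 and 28.1 FPKM in LCN2 libraries and 38.6, 37.9 and 37.3 FPKM in controls. The groups did not overlap, and the LCN2 mean as deposited was 76.3% of the control mean. After scaling, the log2 fold change of Apoe was -0.32 (SE 0.05). Rbp4 (ENSMUSG00000024990, chromosome 19, 38116629 to 38125281), the plasma carrier of retinol, differed from the other 5. It had 179, 164 and 175 FPKM in LCN2 libraries and 159, 171 and 158 FPKM in controls, so that the groups overlapped as deposited. Its log2 fold change was 0.15 (SE 0.05) and it was not called. After scaling, the Rbp4 groups were apart with LCN2 higher, as they were in 23.0% of tested genes, while the LCN2 libraries of the 5 other members lay below all controls, as in 21.6% of tested genes (44.5% in either direction).

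**Figure D2:**
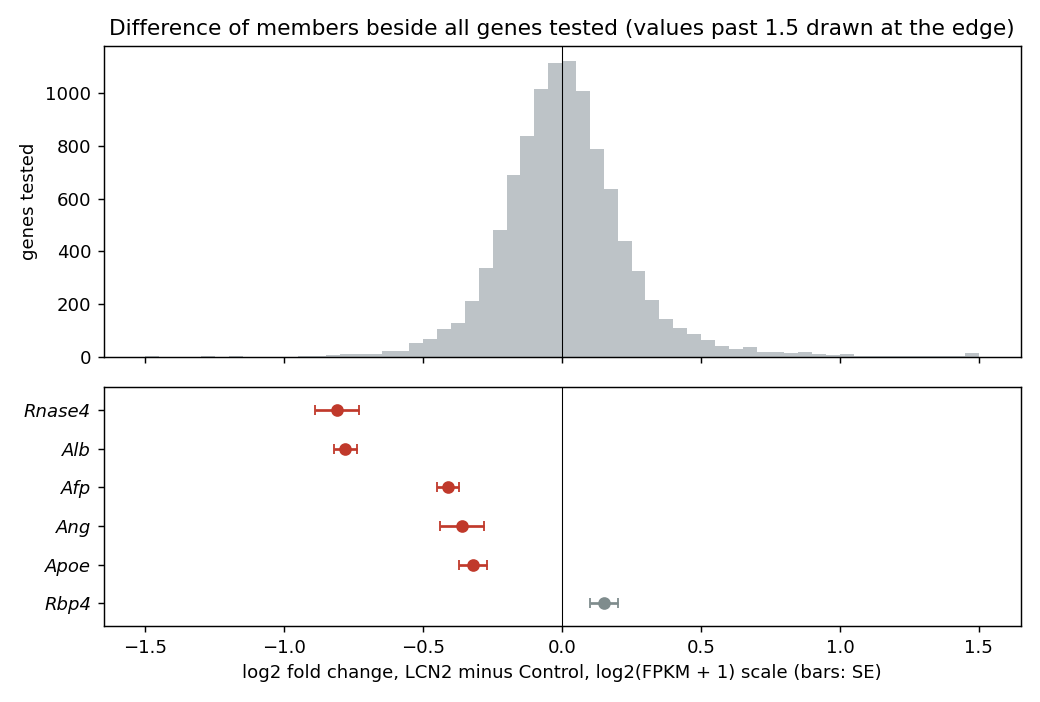
Top, histogram of the log2 fold change (LCN2 minus Control) of the 10309 genes tested; bottom, the same quantity for each of the 6 tested members with its standard error. Rnase4 (-0.81) and Alb (-0.78) lie in the far left tail, Afp, Ang and Apoe between -0.41 and -0.32, and Rbp4 at 0.15; members called lower are red.

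The order of mean levels was the same in both groups, and the groups differed in which neighbours in that order overlapped. In LCN2 libraries Alb averaged 185 ± 7.58 FPKM and Rbp4 173 ± 8.19 FPKM, and their ranges overlapped; Afp, at 111 ± 5.92 FPKM, Rnase4, Apoe at 29.0 ± 1.29 FPKM and Ang at 18 ± 1.74 FPKM followed without overlap between neighbours. In controls Alb, at 335 ± 20.2 FPKM, was above every other member. Rbp4 at 163 ± 7.30 FPKM and Afp at 154 ± 8.67 FPKM overlapped in controls, followed by Rnase4, Apoe at 38.0 ± 0.651 FPKM and Ang at 24.3 ± 1.77 FPKM (SD, n = 3 for each mean). The lowest control Afp library (146 FPKM) was above the highest Rnase4 library (132 FPKM).

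With 1 library removed at a time every member kept the sign of its log2 fold change. The values lay between -0.81 and -0.76 for Alb, -0.90 and -0.74 for Rnase4, -0.44 and -0.38 for Afp, -0.42 and -0.29 for Ang, -0.35 and -0.30 for Apoe, and 0.12 and 0.19 for Rbp4. Alb, Afp and Rnase4 were called lower in all 6 of these fits. Apoe was not called without LCN2 replicate 1 (-0.31). Ang was not called without LCN2 replicate 1 (-0.42), LCN2 replicate 3 (-0.29), control replicate 1 (-0.31) or control replicate 3 (-0.41). Without LCN2 replicate 2, the library that stood apart, the differences were -0.81 for Alb, -0.90 for Rnase4, -0.44 for Afp, -0.37 for Ang and -0.35 for Apoe, and Rbp4 was called higher (0.19).

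**Figure D3:**
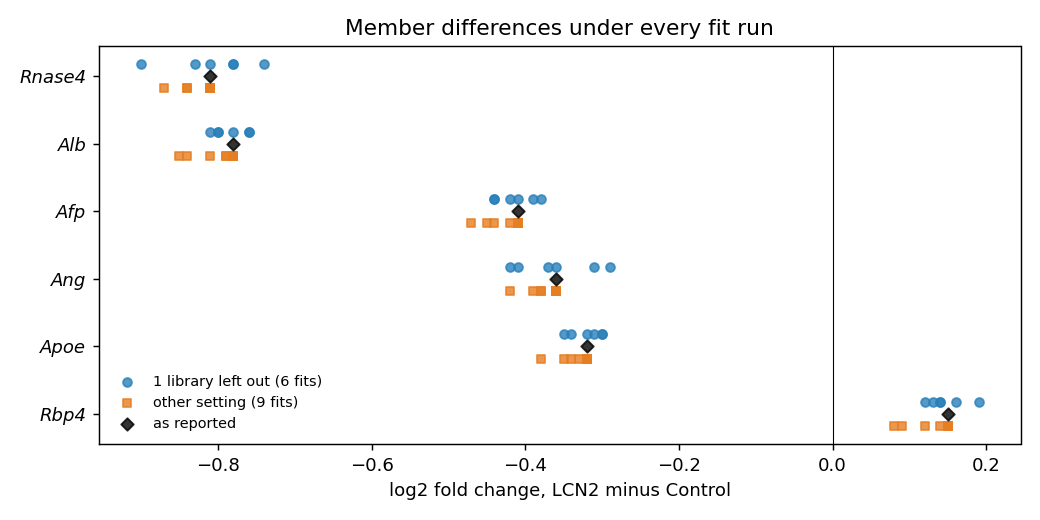
log2 fold change (LCN2 minus Control) of each tested member in the reported fit (diamond), in the 6 fits that leave out 1 library (circles) and in 9 fits with another setting (squares). No member changes sign, and the spread between fits is widest for Rnase4, from -0.90 to -0.74.

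Most genes near the members were low or not called. Within 100 kb of the 9 members the table held 31 other protein-coding genes, of which 18 were tested, 2 were called lower and 2 higher. In the albumin cluster, Afm (afamin) was at or near 0 in every library. Albfm1, annotated as a member of the albumin family 70.4 kb beyond the Afp start, was at 1.44 ± 0.229 FPKM with LCN2 and 2.29 ± 0.189 FPKM in controls (log2 fold change -0.40, limma adjusted p = 0.033). Ankrd17, on the other side of Alb, was at 15.2 ± 0.866 FPKM with LCN2 and 16.7 ± 0.927 FPKM in controls and was not called (adjusted p = 0.41 in limma). The call of Albfm1 was lost without LCN2 replicate 1, LCN2 replicate 3, control replicate 1 or control replicate 3, with a limma adjusted p of up to 0.11.

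Around Apoe, the lipoprotein genes Apoc1 and Apoc2 were under 1 FPKM and Apoc4 was not called (adjusted p = 0.48 in limma), while Relb (1.02, adjusted p = 0.0040) and Nectin2 (0.19, adjusted p = 0.048) were higher on the log2 scale. The 5 other genes of the table within 100 kb of Rnase4, the ribonuclease genes Rnase1, Rnase10 and Rnase2b among them, were all below 1 FPKM. Near Apoa1, Apoc3 was listed at 0 and Apoa5 averaged 0.125 FPKM, and Bud13 was called lower (-0.24 on the log2 scale, limma adjusted p = 0.038). None of the genes tested near Rbp4 was called. With single libraries removed, the call of Nectin2 was lost without any library but control replicate 2 (limma adjusted p of up to 0.16), that of Bud13 without any but LCN2 replicate 2 (up to 0.12), and that of Relb in no case. Nectin2 was also not called under any other scaling, either other filter or no variance trend, and Albfm1 and Bud13 not without a filter on low values.

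**Figure D4:**
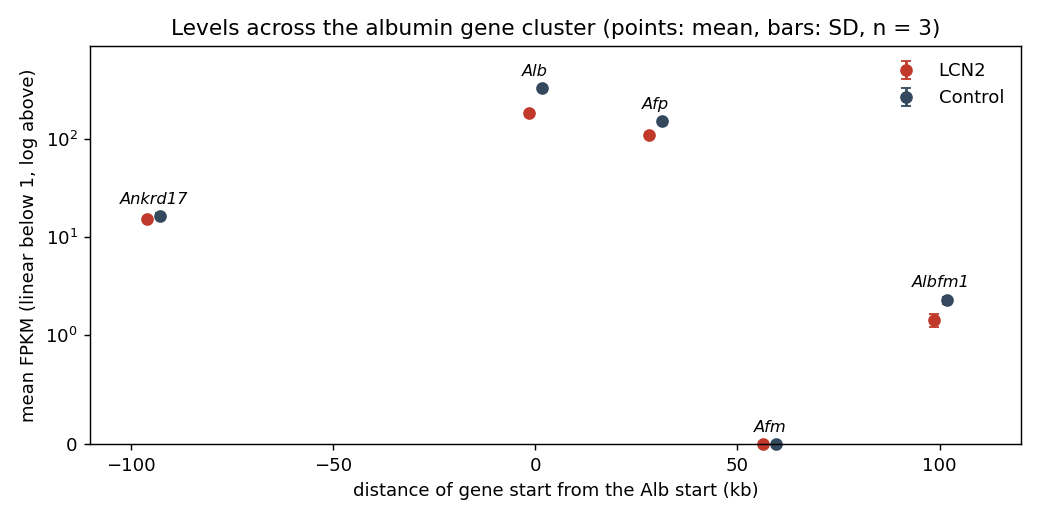
Mean FPKM (points, with SD over 3 libraries) of the protein-coding genes around Alb, against the distance of each gene's start from the Alb start in kb; LCN2 is drawn left of Control, and the vertical axis is linear below 1 and logarithmic above. Alb (185 with LCN2, 335 in Control) and Afp (111 and 154) stand highest, Ankrd17 lies near 16, Albfm1 near 1.86 and Afm at the bottom.

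Most other liver plasma protein genes were below 1 FPKM. Of 79 further plasma protein genes made by hepatocytes, 62 had a row, 47 of these were below a mean of 1 FPKM and 30 were listed at 0 in every library, among them Ahsg, Gc, Plg and the alpha-1-antitrypsin genes Serpina1a to Serpina1e. Of the 15 tested, 3 were higher and 3 lower, with a median log2 fold change of 0.00 beside 0.0008 over all genes tested. Itih2, a hyaluronan-binding heavy chain that pairs with bikunin, was at 23.7 ± 0.692 FPKM with LCN2 and 30.8 ± 0.971 FPKM in controls (-0.30, limma adjusted p = 0.0065). Trf, the iron carrier transferrin, was at 161 ± 3.97 FPKM with LCN2 and 197 ± 6.81 FPKM in controls (-0.23, limma adjusted p = 0.0080). Selenop, the plasma selenium carrier, was at 88.1 ± 0.932 FPKM with LCN2 and 104 ± 3.81 FPKM in controls (-0.17, limma adjusted p = 0.017). For each of these 3 genes all LCN2 libraries were below all controls.

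Angptl8, an inhibitor of lipoprotein lipase, was higher, at 2.86 ± 1.09 FPKM with LCN2 and 0.608 ± 0.470 FPKM in controls (1.31, limma adjusted p = 0.020). Itih2 was called whichever library was left out. The call of Trf was lost without LCN2 replicate 1 (limma adjusted p = 0.052). The calls of Selenop and Angptl8 were lost without LCN2 replicate 1, LCN2 replicate 3, control replicate 1 or control replicate 3 (limma adjusted p of up to 0.074 and 0.078). The remaining calls on this list, Cp and Mst1, were higher; that of Mst1 (0.37) was lost without the same 4 libraries as Selenop (up to 0.074). Exons of Trf, Selenop, Cp and Mst1 overlap those of other annotated genes.

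Among acute-phase proteins, which the liver makes more of in inflammation, 14 of 25 had a row and 5 were tested, of which 4 were higher and 0 lower (median 0.39). Complement C3 was at 21.2 ± 1.5 FPKM with LCN2 and 6.43 ± 0.404 FPKM in controls, and the interleukin-1 receptor antagonist Il1rn at 3.28 ± 0.715 FPKM with LCN2 and 1.19 ± 0.275 FPKM in controls (1.00, limma adjusted p = 0.0069). The copper carrier ceruloplasmin (Cp, 0.39) and the lipopolysaccharide receptor Cd14 (0.32) were the other 2. Crp, Apcs, Orm1, Fgg and Itih3 were listed at 0. The call of Cp was lost without LCN2 replicate 3 or any control replicate and that of Cd14 without LCN2 replicate 1, LCN2 replicate 3, control replicate 1 or control replicate 3 (limma adjusted p of up to 0.083 and 0.11); C3 and Il1rn kept their calls throughout. Cd14 was also not called without scaling or without a filter. C3 was known from earlier results of these data.

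Among 16 other apolipoprotein genes, 11 had a row and 8 of them were below 1 FPKM. Clu (apolipoprotein J, a secreted chaperone) was at 442 ± 21.9 FPKM with LCN2 and 391 ± 22.1 FPKM in controls (0.24, limma adjusted p = 0.018), and 0 were called lower. That call was lost without LCN2 replicate 1, LCN2 replicate 3, control replicate 1 or control replicate 3 (limma adjusted p of up to 0.077). Of 9 tested genes for assembly and editing of apolipoprotein B, 1 rose and 1 fell. Apobec1, the deaminase that edits apolipoprotein B mRNA, was at 13.9 ± 2.47 FPKM with LCN2 and 7.50 ± 1.35 FPKM in controls (0.86, limma adjusted p = 0.011). P4hb, the disulfide isomerase that is also a subunit of the microsomal triglyceride transfer protein, was at 215 ± 5.20 FPKM with LCN2 and 249 ± 4.60 FPKM in controls (-0.14, limma adjusted p = 0.024). Apobec1 was not called without LCN2 replicate 1 (limma adjusted p = 0.052), nor P4hb without LCN2 replicate 1, LCN2 replicate 3, control replicate 1 or control replicate 3 (up to 0.093) or without a variance trend.

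Lipoprotein receptors, lipases and efflux genes gave 0 rises and 3 falls among 11 tested (median -0.18). Among the genes called lower were Lpl, the lipoprotein lipase, at 17.5 ± 0.635 FPKM with LCN2 and 21.2 ± 0.936 FPKM in controls (-0.20, limma adjusted p = 0.023), and Lrp1, a receptor for apolipoprotein E, at 35.2 ± 1.39 FPKM with LCN2 and 41.8 ± 2.1 FPKM in controls (-0.18, limma adjusted p = 0.028). Lpl and Lrp1 were called only with all libraries or without LCN2 replicate 2 (otherwise up to 0.084 and 0.11). Without LCN2 replicate 2 this list gave 1 rise and 5 falls. It gave 0 falls without LCN2 replicate 1, control replicate 1 or control replicate 3, and 1 fall without LCN2 replicate 3 or control replicate 2.

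For the retinol and thyroxine pathways that Rbp4 and transthyretin serve, 12 of 24 measured genes were tested, with 0 rises and 3 falls (median -0.07). Dhrs3, which reduces retinal to retinol, was at 28.0 ± 3.53 FPKM with LCN2 and 40.4 ± 1.03 FPKM in controls (-0.46, limma adjusted p = 0.014). The others were Slc16a10, a transporter of thyroid hormones and aromatic amino acids (-0.47, limma adjusted p = 0.012), and the retinal reductase Rdh11 (-0.30, limma adjusted p = 0.030). Stra6, the cell-surface receptor for retinol-binding protein, was abundant at 233 ± 10.1 FPKM with LCN2 and 254 ± 6.81 FPKM in controls and was not called (limma adjusted p = 0.27); it was picked after its values were seen. None of these 3 falls was called without LCN2 replicate 1 or control replicate 3. Dhrs3 and Rdh11 also failed without LCN2 replicate 3 or control replicate 1, and Rdh11 without control replicate 2 or with no filter (limma adjusted p of up to 0.064 for Dhrs3, 0.057 for Slc16a10 and 0.11 for Rdh11 with 1 library removed).

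Of the genes that handle albumin in other tissues, 3 were tested. B2m, the light chain of the albumin-recycling receptor FcRn and of MHC class I, was at 494 ± 4.68 FPKM with LCN2 and 428 ± 10.5 FPKM in controls (0.27, limma adjusted p = 0.0058), and kept its call whichever library was removed. The FcRn heavy chain gene Fcgrt was at 25.6 ± 0.492 FPKM with LCN2 and 24.8 ± 2.47 FPKM in controls and was not called (limma adjusted p = 0.19; named after its values were seen). In the group of bikunin and hyaluronan partners, Itih2 was the only call among 5 tested genes. Of 15 measured genes of the RNase A family and its partners 3 were tested, and 11 were listed at 0, and none of the listed ribonucleases reached the 1 FPKM that Rnase4 and Ang exceeded. The ribonuclease inhibitor Rnh1 was at 47.4 ± 0.920 FPKM with LCN2 and 47.5 ± 2.93 FPKM in controls, and the angiogenin receptor Plxnb2 at 70.2 ± 1.88 FPKM with LCN2 and 68.8 ± 3.35 FPKM in controls. Neither was called (limma adjusted p = 0.41 and 0.13), and both were named after their values were seen. The heparan sulfate proteoglycan Sdc4 rose by 0.32 (limma adjusted p = 0.017), but its call needed LCN2 replicates 1 and 3 (adjusted p of up to 0.073 with either removed).

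Many hepatocyte transcription factors and regulators of Alb and Afp were present. Of 38 factors 26 reached 1 FPKM, of which 4 were higher and 0 lower (median 0.05); without LCN2 replicate 3, 0 were higher and 1 lower. Cebpb, an activator of liver genes, was at 62.5 ± 10.2 FPKM with LCN2 and 35.0 ± 7.86 FPKM in controls (0.89, limma adjusted p = 0.014). Its partner Cebpg was higher by 0.81 (limma adjusted p = 0.013). Nfil3, a repressor that binds the same sites as the albumin promoter factor Dbp, was at 9.20 ± 1.85 FPKM with LCN2 and 5.64 ± 0.896 FPKM in controls (0.67, limma adjusted p = 0.022). Onecut1 (HNF6) was higher by 0.30 (limma adjusted p = 0.036). Without LCN2 replicate 1, LCN2 replicate 3 or control replicate 3 none of these 4 was called, and Nfil3 and Onecut1 also failed without control replicate 1 (limma adjusted p of up to 0.12 over these fits). Nfil3 also failed without a filter on low values and Onecut1 without scaling. Exons of Cebpb, Cebpg and Onecut1 overlap those of other annotated genes.

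The factors named next were picked after their values were seen. Foxa2 was at 27.3 ± 0.351 FPKM with LCN2 and 27.0 ± 3.37 FPKM in controls, and Cebpa at 16.9 ± 0.689 FPKM with LCN2 and 16.8 ± 2.00 FPKM in controls. Hnf4a was low, at 2.34 ± 0.317 FPKM with LCN2 and 3.03 ± 0.311 FPKM in controls (-0.23, limma adjusted p = 0.15). Zhx2, a repressor of Afp in adult mouse liver, was at 10.5 ± 0.946 FPKM with LCN2 and 8.90 ± 0.976 FPKM in controls (0.27, limma adjusted p = 0.054). None of these 4 passed the test.

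**Figure D5:**
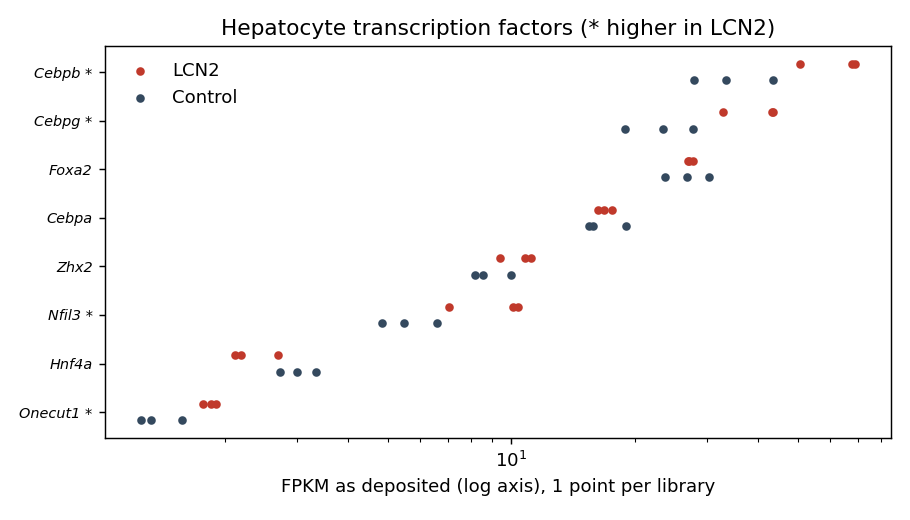
FPKM as deposited (log axis) of the 8 liver transcription factors described in the text, 1 point per library, LCN2 (red) drawn above Control (blue) for each gene. The starred genes, Cebpb, Cebpg, Nfil3 and Onecut1, were called higher with LCN2; the other 4 were not called.

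Defining markers of tissues that make these proteins were set beside them. Of 22 measured hepatocyte enzymes and surface proteins, 18 were below 1 FPKM and 11 were listed at 0, Cps1, Otc, Cyp2e1 and G6pc among them; the sum of the list was 41.3 to 44.7 FPKM in LCN2 libraries and 56.6 to 64.9 FPKM in controls, most of it Ass1. Ass1, an enzyme of arginine synthesis found in many tissues, was at 35.7 ± 1.5 FPKM with LCN2 and 50.9 ± 3.46 FPKM in controls (-0.43, limma adjusted p = 0.0045), and Fah fell by 0.38 (limma adjusted p = 0.0099). Ass1 kept its call whichever library was removed, and Fah lost its call without LCN2 replicate 1 alone (limma adjusted p = 0.052). Of 12 measured visceral endoderm markers 9 were below 1 FPKM and 6 were listed at 0, Sox17, Gata6 and Cer1 among them; their sum was 108 to 115 FPKM with LCN2 and 121 to 128 FPKM in controls. Rhox5 made up most of that sum and was lower (-0.20, limma adjusted p = 0.044), but not without LCN2 replicate 1, LCN2 replicate 3, control replicate 1 or control replicate 3 (up to 0.15), nor without a filter or a variance trend. Foxa2 and Gata4, also on this list, were above 1 FPKM and not called. Foxa2 averaged 27.3 FPKM with LCN2 and 27.0 FPKM in controls, and Gata4 10.6 and 10.8 FPKM.

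Markers of choroid plexus (6 measured, summed 0.254 to 0.411 FPKM with LCN2 and 0.238 to 0.523 FPKM in controls), of endothelium (6 measured, 0.4 to 0.822 and 0.337 to 0.576 FPKM) and of mast cells (5 measured, 0.0524 to 0.153 and 0.0338 to 0.111 FPKM) were near 0 in both groups, with LCN2 libraries given before controls in each bracket. Of 8 macrophage markers 7 were below 1 FPKM, with sums of 10.1 to 10.7 FPKM with LCN2 and 9.60 to 11.5 FPKM in controls that came mostly from Cd68. Of 6 adipocyte markers 5 were below 1 FPKM, with sums of 3.20 to 4.08 FPKM with LCN2 and 2.63 to 3.77 FPKM in controls. Of 4 measured fibroblast markers Col1a1 and Pdgfrb were below 1 FPKM, and the sum of 581 to 612 FPKM with LCN2 and 489 to 545 FPKM in controls was almost all Dcn. Dcn was called higher (0.30, limma adjusted p = 0.0062) and kept its call whichever library was removed. Of 12 measured luminal markers 6 were tested, of which Krt18 and Csn3 were called higher and Krt8 and Krt19 lower, and the list summed to 1260 to 1280 FPKM with LCN2 and 1280 to 1350 FPKM in controls. The luminal keratin gene Krt18 was at 746 ± 29.4 FPKM with LCN2 and 693 ± 31.0 FPKM in controls, and Krt8 was at 244 ± 11.5 FPKM with LCN2 and 308 ± 7.37 FPKM in controls. The calls of Krt18 and Krt19 were lost without LCN2 replicate 1, LCN2 replicate 3, control replicate 1 or control replicate 3 (limma adjusted p of up to 0.12 and 0.087), and those of Krt8 and Csn3 without LCN2 replicate 1 (0.053 and 0.052). Krt18 was also not called without scaling, after quantile normalization, without a filter or without a variance trend. Exons of Krt8 overlap those of another annotated gene. Elf5, Pgr and the milk genes Csn2, Wap and Lalba were listed at 0. Of 6 measured basal markers 5 were below a mean of 1 FPKM. Their list summed to 48.3 to 51.0 FPKM with LCN2 and 44.6 to 47.0 FPKM in controls, almost all of it Krt14. Krt14 was called higher (0.18, limma adjusted p = 0.038). That call was lost without any library but LCN2 replicate 2 (limma adjusted p of up to 0.13), and without scaling, a filter or a variance trend. The part of any of these levels in the members' differences was not tested.

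Likeness over the 6 libraries was measured by Pearson correlation of scaled log2(FPKM + 1). Predicted gene models (symbols of Gm with digits, or ending in Rik) were left out of the genes ranked. Of the rest, those most like Alb were Selenop (0.9973), Fam89a (0.9967), Mtmr4 (0.9963), Eml1 (0.9959) and Cd109 (0.9958). Among members, the correlation with Alb was 0.99 for Afp, 0.98 for Rnase4, 0.97 for Apoe, 0.90 for Ang and -0.85 for Rbp4. Among those most like Rnase4 were Glcci1 (0.9994), Chp1 (0.9982), Stt3b (0.9978) and Map3k1 (0.9968). Since the libraries fall into 2 groups, any gene that separates them correlates with the others; 253 tested genes reached 0.95 with Alb and 534 with Rnase4. These values describe 6 libraries and carry no test.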

How the data were processed

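Total RNA of 3 LCN2-treated EO771 samples and 3 controls was sequenced from libraries made with a SMARTer mRNA kit, per the labels' protocols. The authors deposited 1 table whose name speaks of raw counts, but 0% of its values above 0 were whole numbers (tolerance 1e-09), and they were treated as FPKM; this unit is inferred from the deposited values. The genome build is GRCm38, per the submitters' processing notes. Not given in the sources used here are the aligner, quantifier, annotation and use of strand. The table's columns matched the labels, and 0 other sample columns were left unused. GENCODE M21 gave coordinates and exons (19752 of 19832 gene IDs matched), and RefSeq (GRCm38.p6) the promoters.

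TMM factors were computed without weights on genes averaging 1 FPKM or more, trimming 0.3 of the ratios and 0.05 of the levels at each end. Each library was divided by its TMM factor times its column sum over those genes. These divisors, set to a geometric mean of 1, lay between 0.970 and 1.06. limma 3.58.1 in R 4.3.3, with a variance trend and no replicate term, was run on log2(FPKM + 1) of those 10309 genes and first tested on simulated data. Fold changes on this scale understate changes of low genes. Adjusted p-values are Benjamini-Hochberg over all genes tested, two-sided. Means ± SD are of FPKM as deposited. Alternatives covered scaling, pseudocount, filter, variance trend, a replicate block and each library left out.

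The members and lists were chosen with earlier results of these data known. Of 275 genes on 12 lists, 233 had a row; the others are not analysed here. In each list up to 4 called genes with the smallest adjusted p are named, with neighbours within 100 kb of a member and the 5 genes most like Alb and Rnase4; other names were picked after their values were seen. A few genes that this rule names are not reported here.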

Additional observations from a re-analysis of the deposited data

How the results depend on the processing

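Over all genes, calls were 693 higher and 1680 lower without scaling, 601 lower without a filter on low values, and 181 higher and 81 lower with a replicate block. With 1 library left out they lay between 179 and 1659 higher and between 89 and 1501 lower. The members called lower numbered 3 to 5 and those called higher 0 to 1 when 1 library was left out; 4 were lower with the replicate block, where Apoe was not called (-0.32), and 5 in the other 8 settings. Of the 95 listed genes tested, 14 were called higher and 13 lower (28.4% called, beside 21.5% of all genes tested). With the replicate block these became 4 higher (B2m, C3, Il1rn and Sdc4) and 1 lower (Ass1). The call of Itih2 was lost there, as were those of the neighbours Albfm1, Bud13 and Nectin2. The listed genes called were 4 to 20 higher and 2 to 16 lower with 1 library left out. Without LCN2 replicate 1, 21 of the 27 called list genes lost their call, against 0 without LCN2 replicate 2. No member changed sign under any of these settings. The cause of these shifts was not tested. Same-numbered libraries of the 2 groups had deviations from their group means that correlated at -0.224, -0.261 and 0.009. Whether the numbers pair the samples is not stated, and with 3 libraries per group these values cannot decide it. Member log2 fold changes lay between -0.85 and -0.78 for Alb and between 0.08 and 0.15 for Rbp4 over the 9 settings that keep every library. The number of reads is unknown, which limits what can be said of Ttr, Apoa1 and Ambp.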
